A study of Rattus norvegicus with 93 samples.

Results

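Oxaliplatin added to topotecan was examined in rat bone marrow 6 h after dosing, by setting marrow of animals given both drugs against marrow of animals given topotecan at the same place in the infusion sequence with the vehicle of oxaliplatin in place of oxaliplatin. The 16 arrays concerned were taken by their treatment and time labels from the 93 arrays of the series, 1 array per rat. Topotecan/oxaliplatin (4 rats, topotecan infused first) was set against topotecan/D5W (4 rats), and oxaliplatin/topotecan (4 rats, topotecan infused second) against D5W/topotecan (4 rats), D5W being dextrose in water. The averaged difference over both orders, with the order as a term in the fit, is the main measurement below.

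All animals were male Sprague-Dawley rats of 8 weeks carrying a femoral vein cannula. Each received a pair of intravenous infusions of 30 min with a pause of 30 min between them, so that topotecan-only animals were given D5W and every animal of the 16 received topotecan at 4.7 mg/kg. The combination animals received oxaliplatin at 15 mg/kg as well. The same series holds oxaliplatin without topotecan (NaCl/oxaliplatin, 4 rats, and oxaliplatin/NaCl, 3 rats, at 6 h), vehicle alone (NaCl/D5W and D5W/NaCl, 4 rats each at 6 h) and all treatments at 1 and 24 h. Marrow flushed from 1 femur is a mixture of blood-forming, immune and stromal cells, and in such bulk RNA fewer cells of a type and less RNA per cell cannot be told apart.

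Topotecan traps topoisomerase I on DNA, where the trapped enzyme stops replication forks and also lies in the path of RNA polymerase. Oxaliplatin forms platinum adducts and crosslinks on DNA, which block both kinds of polymerase as well. Damaged cells stabilise the transcription factor p53, which turns on genes for growth arrest and death. Electrophilic drugs turn on a separate program of detoxifying enzymes. In marrow, dividing red cell, granulocyte and B cell precursors are the cells most sensitive to such drugs.

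In the averaged comparison 840 of 12532 probe sets passed the test (limma on log2 signal, Benjamini-Hochberg adjusted p under 0.01), which is 6.7% of those tested, and 684 of them were lower in the combination and 156 higher. Changes were small: 30 probe sets (0.239%) also exceeded 2-fold, 27 lower and 3 higher. With each gene represented by its brightest probe set, 92 of 7810 genes rose (1.18%) and 434 fell (5.56%), and their values had the same sign in both orders, as did those of 5221 of all 7810 genes. Passing on the average of the orders nearly fixes that agreement, so nothing is read from it. The balance of directions depended on the scaling of the arrays. Lower probe sets made up 81.4% of those that passed, but 69.1% after a second quantile normalization and 69.3% after centring each array on its median. The median difference over all probe sets was -0.02 on the log2 scale.

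The 12 genes with the largest increases were Akr1b8, Ccl7, Enc1, Adm, Pim2, Srxn1, Gadd45b, Tfpi2, Phlda3, Irx3, Cdkn1a and Fosl1, which belong to several pathways. Promoters of 3 of the 12 genes with the largest increases held a match to the binding motif of AP-1, the dimer of Fos and Jun proteins to which Fosl1 contributes a subunit. They are printed for that reason from RefSeq (build GRCr8, 250 bases before to 50 after the gene start, 5′ to 3′ on the gene's own strand), with matches to TGANTCA on either strand in capitals. They belong to Ccl7 (chr10:67513845-67514144, plus strand), Srxn1 (chr3:161064562-161064861, plus strand) and Tfpi2 (chr4:32941227-32941526, minus strand).
Ccl7: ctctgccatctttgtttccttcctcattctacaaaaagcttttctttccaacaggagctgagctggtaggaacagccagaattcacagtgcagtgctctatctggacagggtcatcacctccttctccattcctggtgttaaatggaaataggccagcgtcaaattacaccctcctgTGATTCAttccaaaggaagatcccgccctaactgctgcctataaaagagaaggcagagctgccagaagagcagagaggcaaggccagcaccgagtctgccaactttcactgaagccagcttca
Srxn1: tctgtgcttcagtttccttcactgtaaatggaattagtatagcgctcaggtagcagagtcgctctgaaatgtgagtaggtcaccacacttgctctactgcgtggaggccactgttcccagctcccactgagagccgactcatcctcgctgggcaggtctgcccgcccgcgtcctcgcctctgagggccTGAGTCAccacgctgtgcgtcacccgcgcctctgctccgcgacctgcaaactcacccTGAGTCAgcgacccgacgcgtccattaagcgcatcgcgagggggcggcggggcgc
Tfpi2: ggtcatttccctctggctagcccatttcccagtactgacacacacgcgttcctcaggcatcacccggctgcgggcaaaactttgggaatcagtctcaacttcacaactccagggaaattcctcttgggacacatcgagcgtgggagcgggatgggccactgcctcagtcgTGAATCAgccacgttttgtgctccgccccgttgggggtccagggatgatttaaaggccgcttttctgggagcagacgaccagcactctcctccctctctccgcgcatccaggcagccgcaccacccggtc
Of the 12 genes, 11 had a promoter in the RefSeq table. Over all genes that rose, 8 of 83 promoters (9.64%) held the motif, against 340 of 6566 promoters of measured genes (5.18%). The cAMP response element TGACGTCA stood in 7 of the 83 (8.43%), among them Dusp1 and Ier2, against 3% of the promoters of measured genes. The core of the antioxidant response element, TGACNNNGC, stood in 18 of the 83 (21.7%), against 15.1% of the promoters of measured genes. The named genes with it were Cdkn1a, Fosl1, Bcl2l11 and Sesn2. No match was found for Akr1b8, Srxn1, Nqo1 or Txnrd1, though some named genes had no promoter in the RefSeq table. All 3 motifs were searched on both strands. A match describes the letters in the window and does not show that a factor was bound.

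Akr1b8, an aldo-keto reductase that clears reactive aldehydes, showed the largest increase. Its log2 signals were 10.26, 11.10, 12.07 and 11.65 in topotecan/oxaliplatin marrow, against 9.61, 9.73, 9.63 and 10.81 in topotecan/D5W marrow. They were 11.74, 11.41, 10.72 and 12.22 in oxaliplatin/topotecan marrow, against 8.45, 9.16, 9.12 and 10.61 in D5W/topotecan marrow. A single rat of each topotecan-only group stood above the rest of its group, and 1 of them overlapped the combination rats of its order. The averaged difference was 1.76 (SE 0.34, limma adjusted p = 0.0025), a 3.39-fold increase.

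Srxn1, the sulfiredoxin that reactivates oxidised peroxiredoxins, had signals of 9.83 to 10.44 (median 10.04) in the 8 combination rats, against 9.10 to 9.79 (median 9.40) in the 8 topotecan rats. The groups did not overlap, which held for 254 of 7810 genes (3.25%). The difference was 0.68 (SE 0.11, limma adjusted p = 0.000807). Of 21 genes of the oxidant and metal response, 4 rose and 0 fell, where 1.18% of all genes rose, the other risers being the quinone reductase Nqo1 (0.37) and the thioredoxin reductase Txnrd1 (0.26). The median of the list was 0.16. The lists here and below were chosen with earlier results of these data known, so their counts are descriptions without a test.

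Of 20 p53 targets, 7 rose and 0 fell (1.18% of all genes rose), with a median difference of 0.24. Phlda3, which restrains the kinase Akt, was at 9.05 to 9.56 in combination marrow, against 8.25 to 9.01 in topotecan marrow, without overlap (difference 0.63, SE 0.10, limma adjusted p = 0.000533). Cdkn1a, the cell cycle inhibitor p21, was at 9.65 to 10.76 in combination marrow, against 9.24 to 9.88 in topotecan marrow. A single D5W/topotecan rat exceeded the lowest combination rat of either order, and the difference was 0.62 (SE 0.12, limma adjusted p = 0.00326, exact within-order permutation p = 0.000816, two-sided). The rest of the risers were Gdf15, a stress-induced cytokine (0.56), Aen, a nuclease of apoptotic cells (0.46), the cyclin Ccng1 (0.36), Sesn2, a regulator of the kinase mTORC1 (0.35), and Mdm2, the ligase that degrades p53 (0.34). The calls of Aen and Gdf15 ended on leaving out any of 11 and 10 single rats.

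Immediate early genes, which respond to signals within minutes without new protein synthesis, had 7 of 27 members that rose and 0 that fell (median 0.22), where 1.18% of all genes rose. Fosl1, a subunit of AP-1, rose by 0.62 (SE 0.13, limma adjusted p = 0.00478). Smaller increases were measured for the phosphatases Dusp1 (0.33) and Dusp5 (0.32), the RNA-destabilising protein Zfp36 (0.25), and the transcriptional regulators Ier2 (0.30), Ier5 (0.31) and Klf10 (0.22). The calls of Dusp5, Klf10 and Zfp36 ended on leaving out any of 12 single rats and that of Dusp1 any of 8. Gadd45b, a stress sensor listed here with glucocorticoid response genes, was at 9.15 to 9.97 in combination marrow and 8.69 to 8.95 in topotecan marrow, without overlap (difference 0.68, SE 0.08, limma adjusted p = 6.74e-05).

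Among genes of cell death, 3 of 22 rose and 0 fell, where 1.18% of all genes rose. Bcl2l11, which encodes the death-promoting protein Bim, had signals of 9.32, 9.34, 9.49 and 9.48 in topotecan/oxaliplatin marrow, against 8.86, 8.91, 8.99 and 8.80 in topotecan/D5W marrow. They were 9.69, 9.82, 9.47 and 9.75 in oxaliplatin/topotecan marrow, against 8.94, 8.90, 9.23 and 9.22 in D5W/topotecan marrow. All 8 combination rats lay above all 8 topotecan rats (difference 0.56, SE 0.06, limma adjusted p = 3.36e-05). The survival genes Bcl2a1 (0.36) and Birc2 (0.24), which act against death, rose as well.

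The remaining genes of large increase belong to several pathways. Ccl7, a chemokine for monocytes, was at 7.29 to 9.73 in combination marrow, against 6.48 to 7.82 in topotecan marrow (difference 1.15, SE 0.27, limma adjusted p = 0.00961). It was the only member of 28 chemokines and cytokines to pass, and its call ended on leaving out any of 13 single rats. Pim2, a survival kinase (0.69), Adm, the vasodilator peptide adrenomedullin (0.71), and Irx3, a homeobox transcription factor (0.63), rose without overlap between combination and topotecan rats. Enc1, an actin-binding protein (0.75), and Tfpi2, an inhibitor of serine proteases (0.66), rose with overlap. Adm was the 1 member of 28 hypoxia and glycolysis genes to pass, Sesn2 the 1 of 23 in the list of endoplasmic reticulum stress and amino acid response, and Dusp1 and Gadd45b the 2 of 16 glucocorticoid response genes. No gene of heat shock (17), cholesterol synthesis (16), matrix proteases (20), the circadian clock (10), histones (6), cyclins and E2F (19) or ribosome biogenesis (33) passed. Of all genes, 1.18% rose and 5.56% fell. Lists of these sizes would hold few passing genes at such shares, so nothing is read from these counts.

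**Figure D1:**
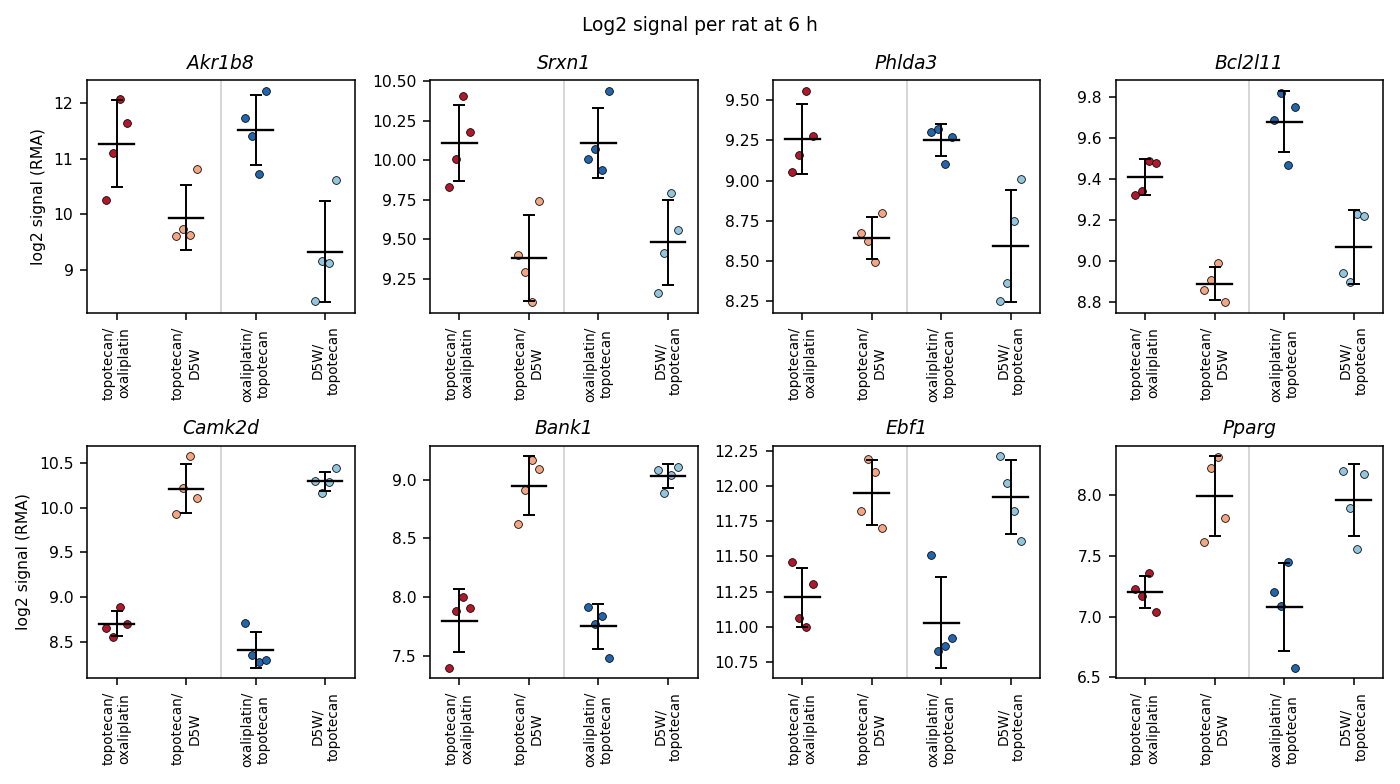
Log2 signal (RMA) of 8 genes in each rat at 6 h, in the 2 combination groups and the topotecan-only group of the same order to the right of each. Points are rats, horizontal lines are group means and bars are SD (n = 4). The upper genes are higher and the lower genes lower in combination marrow, and only Akr1b8 among the 8 overlaps between combination and topotecan rats.

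The genes that fell were of a different kind. The 12 largest decreases ran from -1.69 to -0.99, and in each of the 12 all 8 combination rats lay below all 8 topotecan rats. The groups did not overlap in 3.25% of all genes. Being chosen for their decreases in these same arrays nearly fixes that separation, so nothing is read from it. Camk2d, a subunit of calmodulin-dependent kinase II, had signals of 8.66, 8.56, 8.89 and 8.70 in topotecan/oxaliplatin marrow, against 9.93, 10.22, 10.57 and 10.11 in topotecan/D5W marrow. In the other order they were 8.72, 8.36, 8.28 and 8.31 in oxaliplatin/topotecan marrow, against 10.29, 10.16, 10.28 and 10.44 in D5W/topotecan marrow. The gap between combination and topotecan rats was wider than the whole range within any of the 4 groups, and the signal in combination marrow was 31% of that in topotecan marrow (difference -1.69, SE 0.10, limma adjusted p = 4.27e-08).

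Bank1, a scaffold protein of B cell receptor signalling, was at 7.40 to 8.00 in combination marrow, against 8.62 to 9.17 in topotecan marrow (difference -1.21, SE 0.10, limma adjusted p = 1.48e-06). Plcb1, a phospholipase C, was at 5.75 to 6.20 in combination marrow, against 7.00 to 7.70 in topotecan marrow (difference -1.24, SE 0.09, limma adjusted p = 4.65e-07). Rbms3, an RNA-binding protein, was at 5.19 to 6.05 in combination marrow, against 6.13 to 7.52 in topotecan marrow (difference -1.33, SE 0.15, limma adjusted p = 3.11e-05). All 3 were without overlap, and they belong to different pathways.

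The rest of the 12 spanned signalling, transport, DNA repair and chromatin. They were the Rac GTPase-activating proteins Arhgap24 (-1.12) and Arhgap15 (-1.01), the lipid transfer protein Vps13b (-1.08), the sodium-calcium exchanger Slc8a1 (-1.07), the mismatch repair protein Msh3 (-1.05), Wdfy4, which takes part in antigen cross-presentation (-1.03), the ion channel subunit Unc79 (-1.01), and Arid1b, a subunit of the BAF chromatin remodeller (-0.99). What they had in common was size. The 11 of them with a length in the RefSeq gene models spanned 142 to 787 kb, whereas the 12 genes with the largest increases spanned 1.85 to 18.2 kb.

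Genes that fell were mostly long genes across the whole table, although most genes of the longest class did not fall. Of 7802 genes with a RefSeq length (GRCr8, first to last base of the gene, introns included), those that fell had a median length of 156 kb, those that rose 10.5 kb, and all measured genes 24.2 kb. Of 433 genes that fell, 357 (82.4%) were in the longest of 5 length classes of equal size, from 70.9 kb upward. The share of genes that fell was 0.897%, 0.641%, 0.962%, 2.37% and 22.9% from the shortest to the longest class. The share that rose went the other way, at 2.11%, 2.31%, 1.03%, 0.321% and 0.128%. Set against vehicle at 6 h, the combination lowered 40.2%, 40.4%, 38.2%, 40.4% and 44.4% of genes from the shortest to the longest class. Topotecan alone lowered 40.9%, 41.5%, 36.9%, 35.6% and 26.1% against vehicle, fewest in the longest class. Length was looked at after the largest decreases were seen, so these shares are descriptions without a test, and genes are not independent replicates.

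Long genes also had lower signals on these arrays, with a mean log2 signal of 8.73 in the longest class and 9.86 in the shortest. Genes were therefore also divided into 4 classes of mean signal. From the dimmest to the brightest, the share of the longest genes that fell was 23.7%, 25.5%, 18.4% and 22.2%. Among the shortest genes it was 0.313%, 1.49%, 0.294% and 1.23%. The difference between long and short genes was thus present at every level of signal. The labelling was primed from the poly(A) tail, and where in a transcript each probe set lies was not examined.

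**Figure D2:**
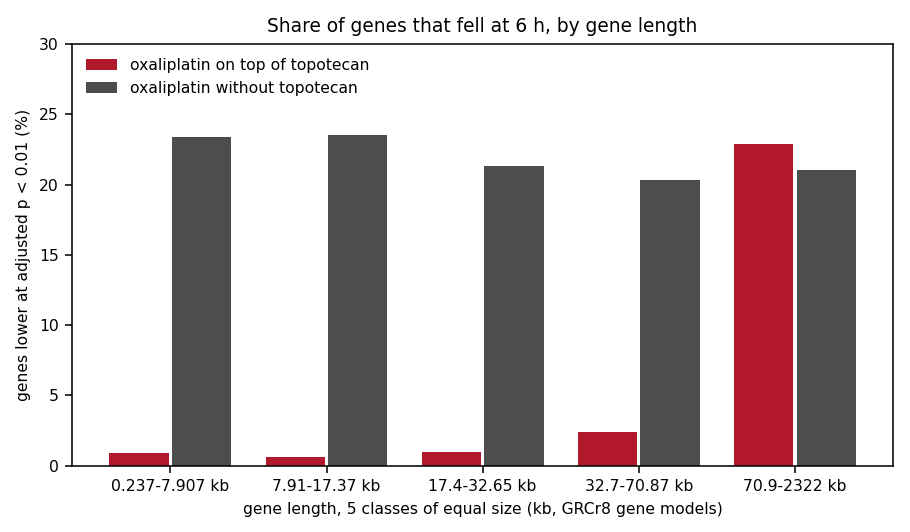
Share of genes lower at adjusted p under 0.01 (percent, vertical axis) in each class of gene length (kb, horizontal axis) at 6 h, for oxaliplatin on top of topotecan and for oxaliplatin without topotecan. On top of topotecan the share was at most 2.37% in the 4 shorter classes and 22.9% in the longest, while without topotecan it was 20.3% to 23.5% in all 5.

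Oxaliplatin given without topotecan gave an even distribution at 6 h. With oxaliplatin alone the share of genes that fell at 6 h was 23.4%, 23.5%, 21.3%, 20.3% and 21% from the shortest to the longest class. Across genes, the rank correlation (Spearman) between length and the log2 difference was -0.46 for oxaliplatin on top of topotecan and -0.02 for oxaliplatin without it (7802 genes each, from different arrays).

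For each rat, the median signal of the longest class minus that of the shortest class was computed after centring each probe set on its mean over the 93 arrays. At 6 h it was 0.106, 0.032, 0.111 and 0.054 in topotecan/oxaliplatin marrow, against 0.181, 0.235, 0.268 and 0.255 in topotecan/D5W marrow. It was -0.015, -0.023, -0.014 and -0.048 in oxaliplatin/topotecan marrow, against 0.371, 0.266, 0.270 and 0.255 in D5W/topotecan marrow. All 8 combination rats were below all 8 topotecan rats. Oxaliplatin without topotecan gave 0.04 to 0.20 and vehicle 0.00 to 0.31, both overlapping the combination. At 1 h the same measure was -0.70 to -0.38 in combination marrow and -0.65 to -0.30 in topotecan marrow, with oxaliplatin alone at -0.14 to 0.08 and vehicle at 0.07 to 0.17. At 24 h it was 0.09 to 0.28 in combination marrow and 0.09 to 0.14 in topotecan marrow, with oxaliplatin alone at 0.14 to 0.22 and vehicle at 0.01 to 0.14. Both kinds of topotecan-treated marrow thus lay below vehicle at 1 h. Oxaliplatin alone had a lower median than vehicle at 1 h (-0.03 against 0.11), with slight overlap. At 6 h the topotecan-only rats overlapped vehicle while lying above all combination rats.

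**Figure D3:**
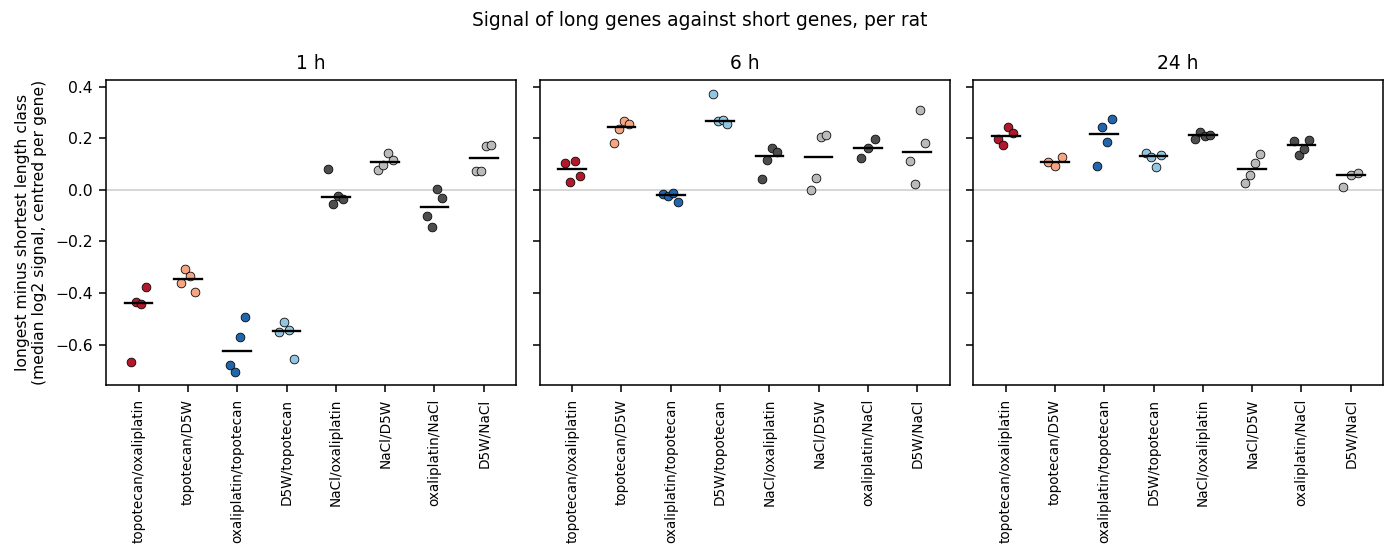
Median log2 signal of the longest length class minus that of the shortest, each gene centred on its mean over 93 arrays, for each rat in the 8 treatments at 1, 6 and 24 h. Points are rats and lines are medians. At 6 h the combination rats lie between -0.05 and 0.11 and the topotecan-only rats between 0.18 and 0.37. That separation restates the length pattern first seen in the same arrays.

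Lists of cell type markers were read beside these results. Of 20 genes of B cell precursors, 3 fell and 0 rose (median -0.24), against 5.56% of all genes that fell. The 3 were Ebf1 (393 kb), Foxp1 (691 kb) and Bank1 (270 kb), all in the longest length class, where 22.9% of genes fell. Ebf1, the transcription factor that commits progenitors to the B lineage, was at 10.83 to 11.51 in combination marrow, against 11.61 to 12.21 in topotecan marrow (difference -0.82, SE 0.12, limma adjusted p = 0.000255). A pair of dimmer Ebf1 probe sets had differences of -1.72 and -2.41. Foxp1, another B lineage transcription factor, fell by 0.56. The level of the B cell list, as the mean log2 signal of its members, was 9.90 to 10.12 in topotecan/oxaliplatin, against 10.10 to 10.46 in topotecan/D5W, and 9.82 to 10.16 in oxaliplatin/topotecan, against 10.20 to 10.35 in D5W/topotecan. How far a change in cell composition took part was not tested.

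Of 24 genes of monocytes and macrophages, 3 fell and 0 rose (5.56% of all genes fell): the scavenger receptor Mrc1 (-0.59), the chemokine receptor Ccr2 (-0.55) and the transcription factor Irf8 (-0.48). Of these, Ccr2 and Irf8 are short, at 7.22 and 21.8 kb, and the call of each ended on leaving out any of 12 single rats. In the erythroid list 2 of 41 fell and 0 rose (median 0.01), a share near the 5.56% of all genes. They were the transcriptional repressors Sox6 (-0.62) and Bcl11a (-0.94). Bcl11a also serves B cell development. Its signals were 8.64 to 9.09 in combination marrow, against 9.51 to 10.12 in topotecan marrow (limma adjusted p = 7.92e-06). In the list of stem and progenitor cells 2 of 16 fell, Runx1 (-0.33) and Mllt3 (-0.51), and in that of stroma, endothelium and adipocytes 2 of 24, the adipocyte regulator Pparg (-0.83) and the sinusoidal scavenger receptor Stab2 (-0.70). Granulocyte precursors had 1 decrease in 18, again near that share, the lectin Fcnb (-0.76). No marker of T and NK cells (24), megakaryocytes (23), mast cells, basophils and eosinophils (17) or osteoblasts and bone matrix (32) passed.

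The 31 skeletal muscle genes had the highest list median, 0.50, with 0 that passed. Their mean level ranged up to 9.58 (rat 52) in topotecan/oxaliplatin, with a lowest value of 6.19 and a median of 6.24, against 6.12 to 6.23 in topotecan/D5W, and 6.36 to 6.75 in oxaliplatin/topotecan against 6.19 to 6.82 in D5W/topotecan. Without rat 52 the list median was 0.06. The interferon response (34 genes, 0 passing, median 0.30) likewise varied within a group, at 9.29 to 9.89 in topotecan/oxaliplatin, against 9.04 to 9.81 in topotecan/D5W, and 9.18 to 10.36 in oxaliplatin/topotecan, against 9.31 to 9.46 in D5W/topotecan. Bone matrix genes (32, 0 passing, median 0.33) spread most in oxaliplatin/topotecan, at 8.59 to 10.24, against 8.84 to 9.52 in D5W/topotecan. Rat 70 of oxaliplatin/topotecan had the lowest median correlation with the other arrays (0.969, the others 0.974 to 0.985).

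Lists of DNA repair, replication and RNA processing had few members that passed, and their counts stand beside the 5.56% of all genes that fell. Of 15 genes of platinum adduct and crosslink repair 2 fell and 0 rose, Xpa of nucleotide excision repair (-0.37) and Rev3l, the catalytic subunit of a translesion polymerase (-0.36). Of 16 genes of topoisomerase I lesion repair 2 fell, Tdp1 (-0.26), which frees DNA of trapped enzyme, and Parp1 (-0.23), and of 36 DNA replication genes 2 fell, the polymerase and primase subunits Pola1 (-0.54) and Prim2 (-0.50). Of 37 splicing factors 3 fell, Hnrnpa3 (-0.21), Hnrnpd (-0.23) and Hnrnpl (-0.19), and the counts of replication and splicing genes were near the share of all genes. In the list of NF-kB feedback and inflammation Nfkb1 fell (-0.35), as 1 of 27. None of 44 mitotic, 39 ribosomal protein, 47 oxidative phosphorylation or 30 proteasome genes passed, and their medians lay between -0.04 and 0.04.

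Both orders of infusion were then read apart. Oxaliplatin after topotecan gave 120 passing probe sets (0.958%), 13 higher and 107 lower, and oxaliplatin before topotecan gave 801 (6.39%), 78 higher and 723 lower. These counts do not show that the orders differed: the test of the difference itself found 0 of 12532 probe sets at adjusted p under 0.01, with 1278 at an unadjusted p under 0.05 and none at an adjusted p under 0.05. In the sample codes, oxaliplatin/topotecan and D5W/topotecan lie in the same columns, whereas topotecan/oxaliplatin and topotecan/D5W lie in different ones, so that for topotecan/oxaliplatin column and oxaliplatin cannot be told apart. Across 7810 genes the differences of the 2 orders, which share no arrays, had a Pearson correlation of 0.51.

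The genes nearest to a difference between orders were Gphn, Htr2a, Wdr13, Snx25 and Gucy1b1. Gphn, the scaffold protein gephyrin (529 kb), was at 6.64, 6.61, 6.70 and 6.76 in topotecan/oxaliplatin marrow, against 7.10, 7.21, 7.48 and 7.28 in topotecan/D5W marrow. It was at 6.15, 6.28, 6.01 and 5.97 in oxaliplatin/topotecan marrow, against 7.51, 7.47, 7.36 and 7.46 in D5W/topotecan marrow. The groups did not overlap in either order, as for 8.83% of all genes with oxaliplatin second and 18.7% with oxaliplatin first. The differences were -0.59 with oxaliplatin second and -1.35 with oxaliplatin first (limma adjusted p of the difference between them 0.131).

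**Figure D4:**
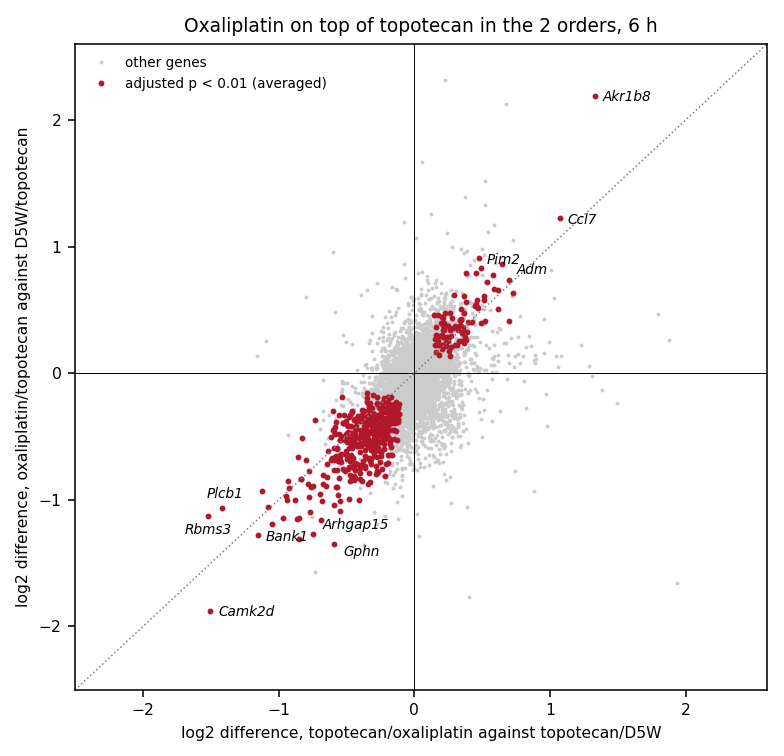
Log2 difference of each of 7810 genes at 6 h between topotecan/oxaliplatin and topotecan/D5W (horizontal axis) and between oxaliplatin/topotecan and D5W/topotecan (vertical axis), with equality as a dotted line. Red points are the 526 genes that passed in the averaged comparison, which nearly fixes their place in the lower left or upper right quadrant, where 5221 of the 7810 genes lie.

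What oxaliplatin added to topotecan was set against what it did without topotecan. Without topotecan it changed 4082 probe sets at 6 h (32.6%), of which 173 (1.38%) exceeded 2-fold. The difference between both effects passed for 2177 probe sets (17.4%), 1006 with the value on top of topotecan above that without it and 1171 with it below. The comparisons share no arrays, and across 7810 genes their Pearson correlation was 0.26. Of the 92 genes that rose on top of topotecan, 47 also rose without it (51.1%, against 14% of all genes), and of the 434 that fell, 199 fell without it (45.9%, against 21.9% of all genes).

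For p53 targets the addition was smaller: 7 of 20 rose on top of topotecan and 13 of 20 without it, the list medians were 0.24 and 0.65, and the difference passed for 10 of 20, all of them smaller on top of topotecan (9.12% of all genes were). Gdf15 averaged 10.96 ± 0.19 in topotecan/oxaliplatin marrow, 11.25 ± 0.34 in oxaliplatin/topotecan marrow, 10.35 ± 0.22 in topotecan/D5W marrow and 10.75 ± 0.31 in D5W/topotecan marrow (SD, n = 4). Oxaliplatin without topotecan gave 11.20 ± 0.18 (NaCl/oxaliplatin, n = 4) and 10.99 ± 0.15 (oxaliplatin/NaCl, n = 3), against 6.71 ± 0.20 and 7.44 ± 0.66 in the vehicle groups NaCl/D5W and D5W/NaCl (n = 4 each). Each drug alone had thus brought Gdf15 near the level of the combination, and the added 0.56 stood against 4.02 without topotecan (difference -3.46, SE 0.22, limma adjusted p = 1.98e-11).

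Lists of division and red cell genes differed in how far this held. Of 36 DNA replication genes, 2 fell on top of topotecan and 33 without it (medians -0.10 and -0.53), and the difference passed for 26, all less negative on top of topotecan (9.81% of all genes had the higher value there). It passed for 5 of 44 mitotic genes, near that share, and for 11 of 41 erythroid genes, 10 with the higher value on top of topotecan and 1 with the lower. Single genes were named for the strength of that difference. Pklr, the pyruvate kinase of red cells, averaged 6.40 ± 0.05 and 6.38 ± 0.24 in the combination groups, 6.18 ± 0.05 and 6.27 ± 0.08 with topotecan alone, 7.18 ± 0.16 and 6.71 ± 0.19 with oxaliplatin alone, and 8.91 ± 0.17 and 8.88 ± 0.25 with vehicle. Its difference was 0.16 on top of topotecan and -1.95 without it (difference between them 2.12, SE 0.12, limma adjusted p = 1.66e-12). Tfr2, a transferrin receptor of erythroid and liver cells, had 0.14 and -2.19, Pabpc4, a poly(A)-binding protein, -0.02 and -1.10, and Ccn2, a matricellular growth factor, 0.16 and 2.78. Topotecan alone differed from vehicle by -2.67 for Pklr, -3.30 for Tfr2, -1.45 for Pabpc4 and 3.83 for Ccn2. In the 16 rats given topotecan, Pklr was at 6.06 to 6.65 and Tfr2 at 5.43 to 6.18. Both were dim there, as the medians of those arrays were 9.06 to 9.20. Whether a further fall could have been measured at such signals was not tested.

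Some genes had a larger response with topotecan present, or one of the opposite sign. Pparg was at 7.04 to 7.36 in topotecan/oxaliplatin marrow, against 7.61 to 8.31 in topotecan/D5W marrow, and at 6.58 to 7.45 in oxaliplatin/topotecan marrow, against 7.56 to 8.20 in D5W/topotecan marrow. Oxaliplatin without topotecan raised it (0.56, SE 0.14, limma adjusted p = 0.00154), so the difference of -0.83 on top of topotecan had the opposite sign (difference between them -1.39, limma adjusted p = 6.45e-06). Bcl2l11, which rose by 0.56 on top of topotecan, stood at -0.15 without it (limma adjusted p = 0.226, difference between them 0.71, adjusted p = 0.000349). Camk2d fell by 1.69 on top of topotecan and by 0.54 without it (difference between them -1.14, limma adjusted p = 0.000194). Bank1 had -1.21 on top of topotecan and -0.02 without it (difference -1.20, limma adjusted p = 2.77e-07). All these genes were named for passing on top of topotecan, and those values enter the differences. Nothing is therefore read from the p-values.

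**Figure D5:**
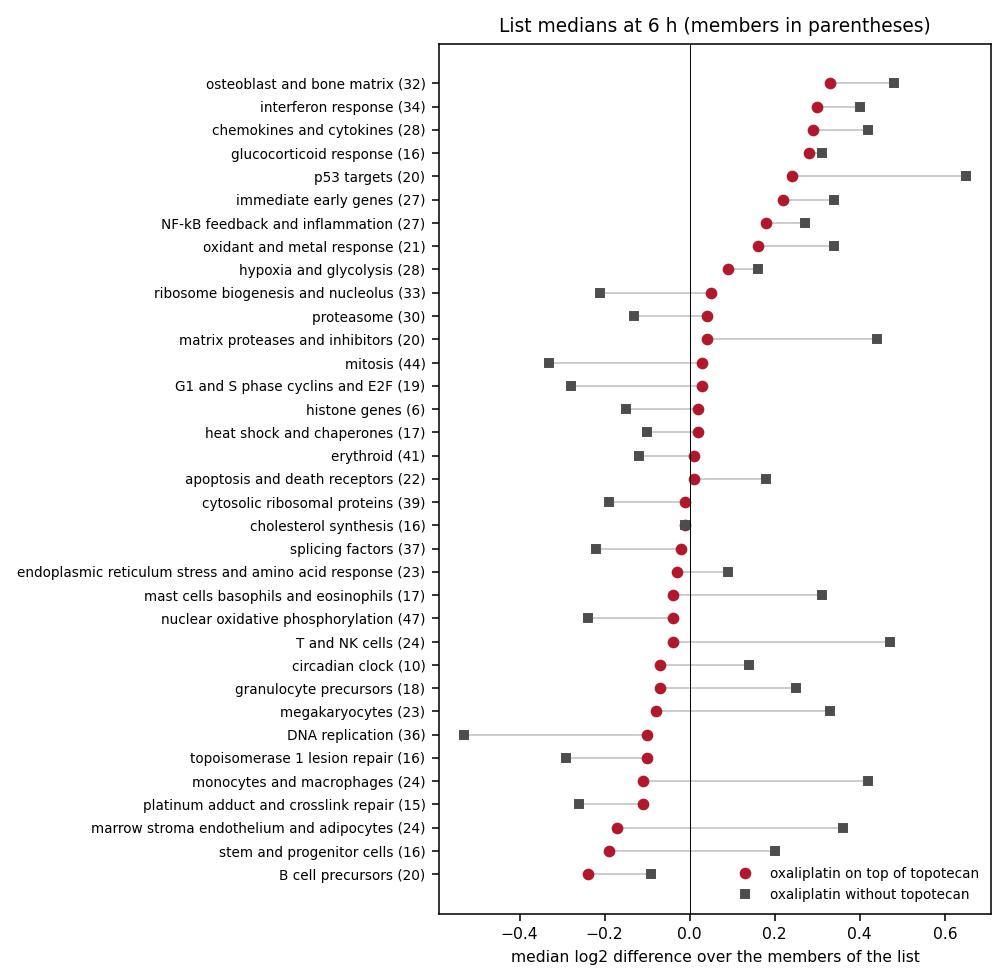
Median log2 difference over the members of each gene list at 6 h (horizontal axis), for oxaliplatin on top of topotecan and for oxaliplatin without topotecan, with the number of genes in parentheses. Skeletal muscle, set by 1 array, is left out. The p53 targets are at 0.24 on top of topotecan and 0.65 without it, and DNA replication at -0.10 and -0.53.

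The 6 h comparison was also set against 1 and 24 h. At 1 h oxaliplatin on top of topotecan changed 244 probe sets (1.95%), 30 higher and 214 lower, and at 24 h 4480 (35.7%), 1245 higher and 3235 lower. The 6 h difference departed from that at 1 h for 141 probe sets (1.13%) and from that at 24 h for 2507 (20%). Of the 12 largest decreases at 6 h, 11 were lower than at 1 h (0.819% of all genes were) and 9 lower than at 24 h (6.06% of all genes). The 12 were chosen for their 6 h values, which enter both differences, so nothing is read from these counts. At 1 h the 12 had differences between -0.38 and 0.17, and at 24 h between -0.71 and 0.43. Of the 12 largest increases, none differed from 1 h at adjusted p under 0.01 and 2 differed from 24 h, Phlda3 and Cdkn1a, both larger at 24 h.

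Camk2d, which had the largest decrease at 6 h, is given as an example and does not stand for other genes. At 1 h it averaged 7.77 in topotecan/oxaliplatin and 8.19 in oxaliplatin/topotecan, against 7.86 in topotecan/D5W and 8.59 in D5W/topotecan, with vehicle at 9.73 and 9.85 (n = 4 each). At 6 h the combination groups averaged 8.71 and 8.42 and the topotecan-only groups 10.21 and 10.29, with vehicle at 9.93 and 9.92. At 24 h the combination groups averaged 9.57 and 9.57 and the topotecan-only groups 9.96 and 9.81, with vehicle at 9.81 and 9.61 (n = 3 in topotecan/D5W and D5W/NaCl, otherwise 4). The gap between combination and topotecan-only marrow was widest at 6 h among the 3 times. Camk2d was chosen for its 6 h decrease, so nothing is read from that.

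Other genes, named for their change between 6 and 24 h, had most of the addition at 24 h. Fcnb, a lectin of granulocyte precursors, fell by 0.76 at 6 h and by 3.78 at 24 h (change between the times 3.02, limma adjusted p = 2.7e-10). Car1, the carbonic anhydrase of red cells, had -0.10 at 6 h and -3.46 at 24 h (change 3.37, adjusted p = 1.98e-09). Hdgf, a nuclear growth factor, had 0.00 and -1.01, and Mrps30, a mitochondrial ribosomal protein, 0.12 and -0.58. Ccr2 had -0.55 at 6 h and -2.52 at 24 h. These genes do not stand for their cell types: at 24 h 4 of 18 granulocyte genes rose and 2 fell, 5 of 24 monocyte genes rose and 2 fell, and 4 of 41 erythroid genes rose and 7 fell, where 10.5% of all genes rose and 30.3% fell.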

How the data were processed

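RNA of femur marrow (integrity number of at least 7.5, labelling primed with oligo-d(T)) was hybridised by a service laboratory to Affymetrix whole-genome rat arrays. The deposited values are log2 signals that the authors made with RMA, after which they kept 12560 probe sets by a filter on shared probe variation (pvac). Removal of 28 array controls left 12532. Symbols came from the array annotation, updated through Entrez IDs: 10002 probe sets had 1 symbol, 292 several and 2238 none. The probe set of highest mean over 93 arrays stood for each of 7810 genes.

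Differences were fitted with limma 3.58.1 in R 4.3.3 (16 arrays, order and oxaliplatin as terms) and p-values adjusted by Benjamini-Hochberg over all 12532. Each order, and the difference between orders, came from a fit with 1 mean per group, the comparison with oxaliplatin alone from the 31 arrays at 6 h, and times from all arrays of the 4 treatments. The script was tested on simulated data. Named genes were the 12 largest per direction that passed with 1 sign in both orders, list members that passed, and up to 5 per other comparison. The members and the 36 lists were chosen with earlier results of these data known. Precision is set by how many rats there were, as arrays carry no sequencing depth, and replicates are separate animals.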

Additional observations from a re-analysis of the deposited data

Results flagged for a closer look

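Of 296 groups of 4 rats (74 genes that could be named, 4 groups), 14 held a rat far from the other 3, where chance flags about 1 in 20. In topotecan/oxaliplatin it was Ier2 in rat 57 (10.18). In topotecan/D5W it was Akr1b8 (10.81) and Ccl7 (7.51) in rat 34, Gadd45b (8.95), Hnrnpl (11.80) and Irf8 (10.46) in rat 33, and Pola1 in rat 28 (7.22). In oxaliplatin/topotecan it was Ebf1 in rat 63 (11.51) and Ier2 in rat 70 (10.78). In D5W/topotecan it was Dusp1 (10.70), Enc1 (9.07) and Plcb1 (7.36) in rat 93, Fcnb in rat 88 (13.34) and Rev3l in rat 87 (9.44).

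The effect of oxaliplatin at 6 h differed between marrow with and without topotecan for 34 of the 74 genes (limma interaction, adjusted p under 0.01, values as with minus without topotecan). Of all probe sets 17.4% did. The 74 include genes named for this difference or for their values on top of topotecan, so nothing is read from the count. Among genes that rose, the difference was -1.82 for Akr1b8, -0.62 for Adm, -1.17 for Aen, -0.73 for Bcl2a1, -1.10 for Ccng1, -1.28 for Cdkn1a, -3.46 for Gdf15, -0.81 for Mdm2, -0.99 for Phlda3, -0.42 for Sesn2 and 0.71 for Bcl2l11. Among genes that fell, it was -0.72 for Arhgap15, -0.55 for Arhgap24, -1.20 for Bank1, -1.14 for Camk2d, -0.47 for Gphn, -0.86 for Mrc1, -0.30 for Nfkb1, -1.39 for Pparg, -1.05 for Rbms3, -0.42 for Runx1, -0.59 for Vps13b, -0.67 for Wdfy4, 0.57 for Hnrnpd and 0.32 for Parp1. Among genes that did not pass on top of topotecan, it was 1.74 for Car1, -2.62 for Ccn2, -0.69 for Gucy1b1, 0.94 for Hdgf, -0.63 for Htr2a, 0.42 for Mrps30, 1.09 for Pabpc4, 2.12 for Pklr and 2.32 for Tfr2.

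The addition at 6 h differed from that at 1 h for 13 of the 74 genes, against 1.13% of all probe sets. The change (6 h minus 1 h) was -1.04 for Arhgap15, -0.93 for Arhgap24, -0.78 for Arid1b, -1.16 for Bank1, -1.44 for Camk2d, -1.05 for Gphn, -0.82 for Msh3, -1.42 for Plcb1, -1.24 for Rbms3, -0.67 for Unc79, -1.13 for Vps13b, -0.85 for Wdfy4 and 0.58 for Bcl2l11. The addition at 6 h differed from that at 24 h for 21, against 20% of all probe sets. Some of the 74 were named for these time differences or their 6 h values, so nothing is read from either count. The addition was lower at 6 h, by 6 h minus 24 h, for Arhgap15 (-0.67), Arhgap24 (-1.19), Bank1 (-1.0), Camk2d (-1.38), Ccn2 (-1.13), Cdkn1a (-1.47), Gucy1b1 (-0.98), Phlda3 (-0.67), Plcb1 (-0.72), Pparg (-1.02), Rbms3 (-1.76), Slc8a1 (-0.74), Vps13b (-0.64) and Wdfy4 (-0.75). It was higher at 6 h for Car1 (3.37), Ccr2 (1.97), Fcnb (3.02), Hdgf (1.01), Mrps30 (0.70), Pabpc4 (0.87) and Tfr2 (1.44).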

How the results depend on the processing

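The count of 840 passing probe sets lay between 571 and 988 under the 10 alternatives of arrays, model, scaling and filter. It was 1822 at an adjusted p under 0.05 and 30 with a 2-fold minimum added. Leaving out 1 rat gave 633 to 870, and leaving out rats 52 and 70 together, a choice made after seeing the data, gave 521. The share of decreases that fell in the longest length class stayed between 77.6% and 89.5% in those of these settings that kept the threshold, as it was not computed for the other thresholds. Counts of both orders, of the difference from oxaliplatin alone and of the time differences stayed within 1.5 times under a second quantile normalization, as did those refitted with sample-code sets or all 93 arrays. The sample-code term set columns 7 and 8 against 5 and 6. Topotecan/D5W lies in 5 and 7 and topotecan/oxaliplatin in 6 and 8, so that term cannot part column from oxaliplatin there. No named gene that passed changed sign. Of 64 named genes that passed, 17 lost the call in the fit of all 93 arrays, 17 in oxaliplatin/topotecan against D5W/topotecan alone and 19 without rats 52 and 70. Each single rat left out ended 7 to 17 of these calls. The increases of Ccl7, Enc1, Gdf15, Aen, Dusp5, Klf10, Txnrd1 and Zfp36 and the decreases of Ccr2, Irf8, Hnrnpd, Stab2 and Tdp1 each lost the call on leaving out any of 10 or more single rats, with adjusted p up to 0.168 over their alternatives. Fewer rats ended the calls of Birc2, Dusp1, Fosl1, Hnrnpl, Pola1, Rev3l and Tfpi2. No paired analysis was possible because each rat gave 1 array and no animal number recurs between groups.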
